A study of Mus musculus with 34 samples.

Results

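Genes encoding 7 receptor chains for myeloid growth factors were examined in bone marrow-derived dendritic cells (BMDCs) that carried or lacked CTCF. They were Csf2rb, Csf2rb2, Csf2ra, Csf1r, Csf3r, Flt3 and Kit, taken by name from a list of receptor genes, and they are 7 of the 21938 protein-coding genes of the GENCODE vM21 annotation (mm10). The study deposited 30 lists of chromatin immunoprecipitation sequencing (ChIP-seq) peaks, with 1 list for each antibody and condition. The antibodies were against CTCF, SMC1 (a subunit of cohesin), p65 (a subunit of NF-κB), STAT5 and 4 histone marks, H3K27ac, H3K4me3, H3K4me1 and H3K27me3.

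All cells came from C57BL/6 mice labelled as 8 weeks old, carried the CreER transgene (Cre fused to an estrogen receptor domain, driven from the Rosa26 locus), were grown for 6 days in GM-CSF and received 4-OH tamoxifen on the first day. WT cells were CreER and CTCF-KO cells were CreER;CTCF fl/fl, so both genotypes carried Cre and saw the drug. WTLPS and KOLPS cells had in addition been exposed to 100 ng/ml lipopolysaccharide (LPS) for 3 h. STAT5 was profiled without LPS, in WT and CTCF-KO cells restimulated with GM-CSF for 15 min. The labels give the antibody as one against STAT5, while the ChIP-seq methods name a catalogue number that the antibody list gives for phosphorylated STAT5, so that total and phosphorylated STAT5 are not distinguished here. The cells were the CD11c-selected floating fraction of a GM-CSF culture, a monocyte-derived model that contains dendritic cells and macrophages, and the growth factor that sustained them is the ligand of the Csf2ra and Csf2rb products. Where 4 values follow each other they are in the order WT, WTLPS, KO, KOLPS, and where 2 do, WT and KO. Fold is the height of a peak over its local background, and -log10 p its significance, both as the peak caller gave them. With 1 list per condition no difference between conditions has a replicate check, and the intervals given below cover counting error only.

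These receptors carry the signals that make and sustain myeloid cells. Csf2ra encodes the ligand-binding chain of the GM-CSF receptor, and Csf2rb encodes the common β chain that GM-CSF, IL-3 and IL-5 receptors share. Csf2rb2 is its neighbouring copy, which serves IL-3 in the mouse. Both β chains signal through the kinase JAK2 to STAT5. Csf3r encodes the G-CSF receptor of the neutrophil lineage. Csf1r (the M-CSF receptor), Flt3 and Kit encode receptor tyrosine kinases of macrophages, of dendritic cell progenitors and of stem, progenitor and mast cells, in that order. H3K4me3 marks the start of active or poised genes, H3K27ac marks active promoters and enhancers, and H3K27me3 is the mark of Polycomb repression. CTCF stops the cohesin ring, of which SMC1 is a part, at its binding sites.

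The genes lie on 5 chromosomes of mm10. Csf2rb (ENSMUSG00000071713.6, chr15:78325752-78353847, plus strand) and Csf2rb2 (ENSMUSG00000071714.7, chr15:78282507-78305721, minus strand) stand head to head with 20031 bp between their start sites. Csf2ra occupies chr19:61223957-61228429 (minus strand), Csf1r chr18:61100598-61132149 (plus), Csf3r chr4:126024550-126044440 (plus), Flt3 chr5:147330741-147400489 (minus) and Kit chr5:75574916-75656722 (plus). A promoter was the stretch within 2.5 kb of the first base of a gene's longest transcript, and the surroundings were all that lay within 100 kb of it. For Csf2ra the longest transcript is a retained-intron form whose start lies 1735 bp inside that of the longest coding form. The surroundings of Csf2rb and Csf2rb2 overlap, so that most of their peaks are the same peaks, and numbers over all 7 genes count each peak once.

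The Csf2rb and Csf2rb2 introns hold a pair of nearly identical sequences under the STAT5 and p65 peaks described later. They are shown because they carry a p65-type motif and a STAT5-type motif side by side. Each is written in the direction of its gene, with a match of the κB motif of p65 (here on the opposite strand) and of the STAT5 motif TTCNNNGAA in capitals. The first lies at chr15:78334571-78334640 (plus strand) and the second at chr15:78298785-78298854 (minus strand).

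Csf2rb intron: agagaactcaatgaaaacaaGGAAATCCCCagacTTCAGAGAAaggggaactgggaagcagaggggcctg

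Csf2rb2 intron: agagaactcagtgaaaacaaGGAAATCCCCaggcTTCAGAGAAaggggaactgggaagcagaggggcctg

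Of these 70 bases, 68 were identical (97.1%), and the motifs stood 4 bases apart in both copies. The 1 kb around the summits of the WT STAT5 peaks in these introns aligned over 931 columns with 87.0% identity, and the longest identical run was 117 bases. The promoters of the same genes were also alike. Their STAT5 peaks held the same motif, centred at 192 bp from the Csf2rb start (chr15:78325930-78325958) and at -11 bp from the Csf2rb2 start (chr15:78305718-78305746), again written in the direction of the gene. The summits lay close to it, at 180 bp in WT and 163 bp in KO for Csf2rb, and at -22 and -47 bp for Csf2rb2.

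Csf2rb promoter: atgtccacaaTTCTGAGAAtcaggcgaag

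Csf2rb2 promoter: gtgtccacaaTTCTGAGAAgcaagcaaag

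The 1 kb around the promoter summits was 91.2% identical over 1001 aligned columns, with a longest identical run of 80 bases. Reads that fall wholly within such runs cannot be assigned to a copy by their sequence, so peak heights at the copies are uncertain. Whether peaks at both copies stand for separate binding is uncertain too, and the counts below include both.

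The promoters divided into 2 chromatin states that were the same in all 4 conditions. Csf2rb, Csf2rb2, Csf2ra, Csf1r and Csf3r carried H3K4me3 and H3K27ac peaks and no H3K27me3 peak, a state found in all 4 conditions at 30.6% of protein-coding genes. Flt3 and Kit carried H3K4me3 and H3K27me3 peaks and no H3K27ac peak, a state found in all 4 conditions at 3.93% of genes. By these promoter marks the chains of the GM-CSF receptor and the M-CSF and G-CSF receptors stood on one side. The receptors best known from progenitors stood on the other. By the paper's flow cytometry the GM-CSF cultures were mainly cells without the surface product of Csf1r and with that of Flt3. Surface protein and promoter marks are unlike measures, and the split describes the marks only. No receptor promoter moved from one state to the other between conditions, although the assignment depended on the settings. At -log10 p at or above the median of each antibody Flt3 left its state in all 4 lists, and by the middle of the peak Csf2rb2 was not acetylated in any. Over the 30 lists and 7 genes, 110 promoter peaks were present.

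**Figure D1:**
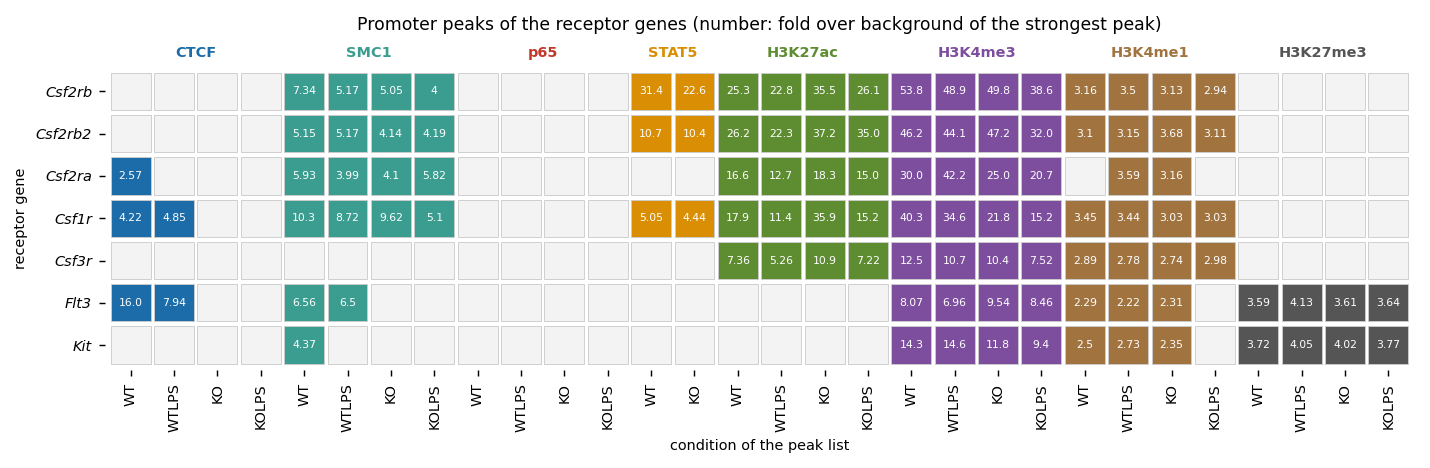
Promoter peaks of the 7 receptor genes (rows) in the 30 lists (columns, by antibody and condition). A coloured cell has at least 1 peak within 2.5 kb of the start site, and the number is the fold over background of the strongest one. H3K27me3 cells are filled at Flt3 and Kit, H3K27ac cells at the other 5 genes, and the p65 columns are empty.

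At the β chain genes the active marks were among the strongest in the genome. The strongest H3K27ac peak at the Csf2rb promoter had folds of 25.3, 22.8, 35.5 and 26.1. At Csf2rb2 the H3K27ac folds were 26.2, 22.3, 37.2 and 34.99. By -log10 p these peaks ranked within the top 0.128%, 0.507%, 0.0246% and 0.105% of their lists at Csf2rb. At Csf2rb2 they ranked within the top 0.0959%, 0.568%, 0.0184% and 0.0205%. The H3K4me3 peak of Csf2rb spanned 9894, 9103, 9296 and 8911 bp, where the median H3K4me3 peak of a list was between 1219 and 1462 bp wide. Both genes thus kept tall and broad active marks in every list.

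The ligand-binding chain and the other active receptors had lower H3K27ac folds than both β chain genes in every list, except that Csf1r in KO lay between them. At Csf2ra the H3K27ac folds were 16.6, 12.7, 18.3 and 15.0, and the H3K4me3 folds were 30.03, 42.2, 24.99 and 20.7. Csf1r had H3K27ac folds of 17.9, 11.4, 35.9 and 15.2, the LPS-treated list being the lower of the pair in both genotypes, and H3K4me3 folds of 40.3, 34.6, 21.8 and 15.2, lower in both CTCF-KO lists than in either WT list. Csf3r was the weakest of the active promoters in every list of these 2 marks, with H3K27ac folds of 7.36, 5.26, 10.9 and 7.22. Its H3K4me3 folds were 12.5, 10.7, 10.4 and 7.52. Csf3r was also the only receptor with no CTCF, SMC1, p65 or STAT5 peak at its promoter in any list. Fold depends on the coverage of a list, which was lower for H3K27ac in CTCF-KO cells (0.748 background fragments at a summit in KO against 1.17 in WT), and its part in these differences was not tested.

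At Flt3 and Kit the H3K4me3 and H3K27me3 peaks lay within the same promoters. The H3K27me3 folds at Flt3 were 3.59, 4.13, 3.61 and 3.64, and at Kit 3.72, 4.05, 4.02 and 3.77. The length covered by H3K27me3 within 2.5 kb of the Flt3 start was 4.23, 2.495, 3.94 and 0.214 kb. At Kit the covered length was 2.41, 2.12, 3.07 and 0.985 kb. The KOLPS list gave the shortest cover at both genes, and that list was the shortest of the antibody as a whole, with 26960 peaks against 65880 to 96475 in the other 3 and a higher lowest -log10 p (3.47 against 2.72 to 3.03). H3K27me3 peaks that were present in WTLPS and absent in KOLPS made up 49.1% of all promoters with a peak in WTLPS, and 0 of these 2 genes were among them. Flt3 and Kit also lost their promoter H3K4me1 peak in KOLPS, as did Csf2ra, where H3K4me1 was called in WTLPS and KO only. The Csf2ra peak was the only one at a receptor promoter that was present in WTLPS and absent in WT, against 6.13% of H3K4me1 promoters. H3K4me1 was absent in KOLPS at 21% of the promoters that had it in WTLPS, against 3 of 7 receptor promoters. These calls depended on the start site used. The Csf2ra promoter, taken from the retained-intron start, shared only 125 bp with the peak in WTLPS and 75 bp in KO. With the starts of all transcripts H3K4me1 was also called at Csf2ra in WT and KOLPS, and at Kit in KOLPS.

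CpG content did not run parallel to these states. Within 500 bp of the start sites there were 8 CpG dinucleotides at Csf2rb, 11 at Csf2rb2, 13 at Csf1r and 19 at Csf3r. Flt3 had 66, Kit 70 and Csf2ra 122. The median was 65 over the 2127 promoters with H3K4me3 and H3K27me3 without H3K27ac in WT, 64 over the 8335 with H3K4me3 and H3K27ac without H3K27me3, and 41 over all genes. Flt3 and Kit were thus close to the median of promoters in their state, whereas 4 of the 5 active receptors fell below the lower quartile of theirs, which was 46. Bases just upstream of 3 of the genes, from RefSeq (GRCm38.p6), are shown with CpG in capitals to illustrate the range, and 5 of the 7 genes were matched in that table.

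Flt3, chr5:147400490-147400639, minus strand: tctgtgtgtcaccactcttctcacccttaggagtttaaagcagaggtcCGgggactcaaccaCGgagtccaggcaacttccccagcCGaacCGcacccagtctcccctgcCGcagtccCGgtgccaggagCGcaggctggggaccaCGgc

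Kit, chr5:75574837-75574915, plus strand: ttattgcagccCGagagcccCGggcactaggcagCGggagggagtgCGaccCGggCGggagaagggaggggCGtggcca

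Csf2rb2, chr15:78305722-78305871, minus strand: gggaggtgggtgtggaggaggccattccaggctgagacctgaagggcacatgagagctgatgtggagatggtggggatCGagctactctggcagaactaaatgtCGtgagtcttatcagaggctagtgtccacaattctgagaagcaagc

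These stretches held 8 CpG in 150 bases, 7 in 79 bases and 2 in 150 bases. The Csf2rb2 stretch ends in most of the STAT5 site printed above.

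STAT5 was found at the promoters of both β chain genes and of Csf1r, in both genotypes. The fold at Csf2rb was 31.4 and 22.6, at Csf2rb2 10.7 and 10.4, and at Csf1r 5.05 and 4.44. The Csf1r peaks were weak, with -log10 p of 7.57 and 6.58, and 90.3% and 93.9% of their lists were as strong or stronger. They lay more than 1 kb from the start. Neither was called with promoters of 1 kb or at -log10 p at or above the antibody median. The WT one also dropped out with lists of equal size. A STAT5 promoter peak in WT and in KO was found at 2.67% of genes, and 0 of 3 receptor promoters lost it in KO, where 32.6% of all promoters with a WT peak did. Csf2ra, Csf3r, Flt3 and Kit had no STAT5 promoter peak in either list.

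Including the surroundings, 12 STAT5 peaks were counted in WT and 8 in KO, a ratio of 0.667 (exact 95% interval 0.236 to 1.77), against 0.837 for the whole lists. All 8 KO peaks overlapped a WT peak, as did 77.2% of the whole KO list. Fewer peaks in KO than in WT were found at 4 of the 5 receptors with any, and at 45% of such genes in the genome. The strongest STAT5 peak near any receptor in WT lay in an intron of Ncf4, which encodes a subunit of the phagocyte NADPH oxidase, 48.2 kb downstream of the Csf2rb2 start, with folds of 33.97 and 17.1, and in KO the Csf2rb promoter peak was the strongest. The Csf2rb intronic copy printed above had folds of 20.2 and 14.4 (summits 8.87 and 8.81 kb from the start), and the Csf2rb2 copy 12.03 and 18.5 (6.999 and 6.87 kb). The order of the copies was thus reversed between the genotypes. Reads within the identical runs cannot be assigned to a copy, so this order is uncertain. At Csf3r the sole STAT5 peak stood 20.3 kb upstream, outside genes, with folds of 21.9 and 17.0, and no SMC1, H3K27ac, H3K4me3 or H3K27me3 peak of the same condition touched it. H3K4me1 touched it in both genotypes and CTCF in WT. Near Csf1r a further STAT5 peak lay in a Pdgfrb intron 35.9 kb upstream, with folds of 10.1 and 6.85.

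In WT only, 4 STAT5 peaks were present. They lay 37.7 kb and 27.1 kb downstream of the Csf2rb2 start, 31.1 kb upstream of Csf1r in a Pdgfrb intron, and over an exon of Kit 65.9 kb from its start. Their folds were 6.01, 7.30, 4.20 and 7.30, and their -log10 p lay between 5.71 and 12.999, all below the WT list's median of 14.1. In a split chosen after seeing the data, of the 7 WT receptor peaks at or above that median 7 were kept in KO, and of the 5 below it 1 was kept, where the shares for whole lists were 88.6% and 38.8%. The KO list was the more deeply covered one, with 1.70 background fragments at a summit against 1.33. Csf2ra and Flt3 had no STAT5 peak within 100 kb. The motif TTCNNNGAA lay within 50 bp of the summit at 6 of 12 WT and 6 of 8 KO receptor peaks, against 37.9% of all summits in each list.

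No receptor promoter had a p65 peak in any condition, where 3.87% of genes had one in at least 1 list. Around the genes, p65 peaks numbered 5, 11, 4 and 9. The ratio of WTLPS to WT was 2.20 (exact 95% interval 0.705 to 8.08), and that of the whole lists was 6.997. More p65 peaks in WTLPS than in WT were found for 4 of the 5 receptors with any peak in these lists, and for 90.2% of all genes with any peak. KOLPS had 0.818 times the WTLPS peaks (interval 0.300 to 2.17) where the whole list had 0.321 times as many. Fewer peaks in KOLPS than in WTLPS were found at 2 of 5 receptors, Csf3r and Flt3, and at 71.8% of genes. Both ratios of the whole lists lay inside these intervals. Of the 11 WTLPS peaks 7 were overlapped in KOLPS (63.6%), against 22.7% of the whole WTLPS list. Most of the overlapped peaks lay at 1 locus, with 5 of 6 near Csf2rb and Csf2rb2, the intronic copies among them. The copies count as 2 peaks here, although reads within their identical runs cannot be assigned to either. Near Csf1r 1 of 1 was overlapped, near Csf3r 1 of 3 and near Flt3 0 of 1.

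The tallest p65 peak near a receptor lay at -31.04 kb from the Csf1r start in an intron of Pdgfrb, the gene of a related receptor tyrosine kinase. Its folds were 32.2, 38.1, 20.8 and 18.4, and it ranked within the top 0.896%, 0.640%, 1.79% and 4.51% of the lists. The κB motif lay within 50 bp of its summit in all 4, and the peak was thus called without LPS as well as with it.

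At the intronic copies of Csf2rb and Csf2rb2, p65 was found in WT, WTLPS and KOLPS and not in KO. The Csf2rb copy had folds of 12.3 in WT, 15.6 in WTLPS and 7.71 in KOLPS, and the Csf2rb2 copy 12.3, 11.9 and 6.60. All 10 STAT5 and p65 peaks at the copies covered the whole of the 70 bases printed above. Both WT peaks had a -log10 p of 23.1, and the KO list reached down to 5.46. The coverage was 0.705 background fragments in KO against 0.713 in WT. Fewer p65 peaks in KO than in WT were found at 2 of 4 receptors, Csf2rb and Csf2rb2, and at 50.7% of genes. More were found at 2 of 4, Csf1r and Csf3r, and at 16.5% of genes. Of all promoters with a p65 peak in WT, 51.9% had none in KO. Why the copies had no peak in KO was not tested. A p65 peak 60.9 kb from Csf2rb2, at the Ncf4 promoter, was called in all 4 lists with folds between 6.38 and 7.59. In WTLPS only, p65 was called over the Ncf4 intron site of STAT5 (fold 12.4). It was likewise called in WTLPS only in a Flt3 intron 11.4 kb from the start and 20.3 kb upstream of Csf3r over the STAT5 peak described above, both with a fold of 7.01. Csf2ra and Kit had no p65 peak within 100 kb in any list. The κB motif lay within 50 bp of the summit at 4 of 5, 3 of 11, 1 of 4 and 5 of 9 receptor peaks, against 27.02%, 11.5%, 20.4% and 12.3% of all summits.

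**Figure D2:**
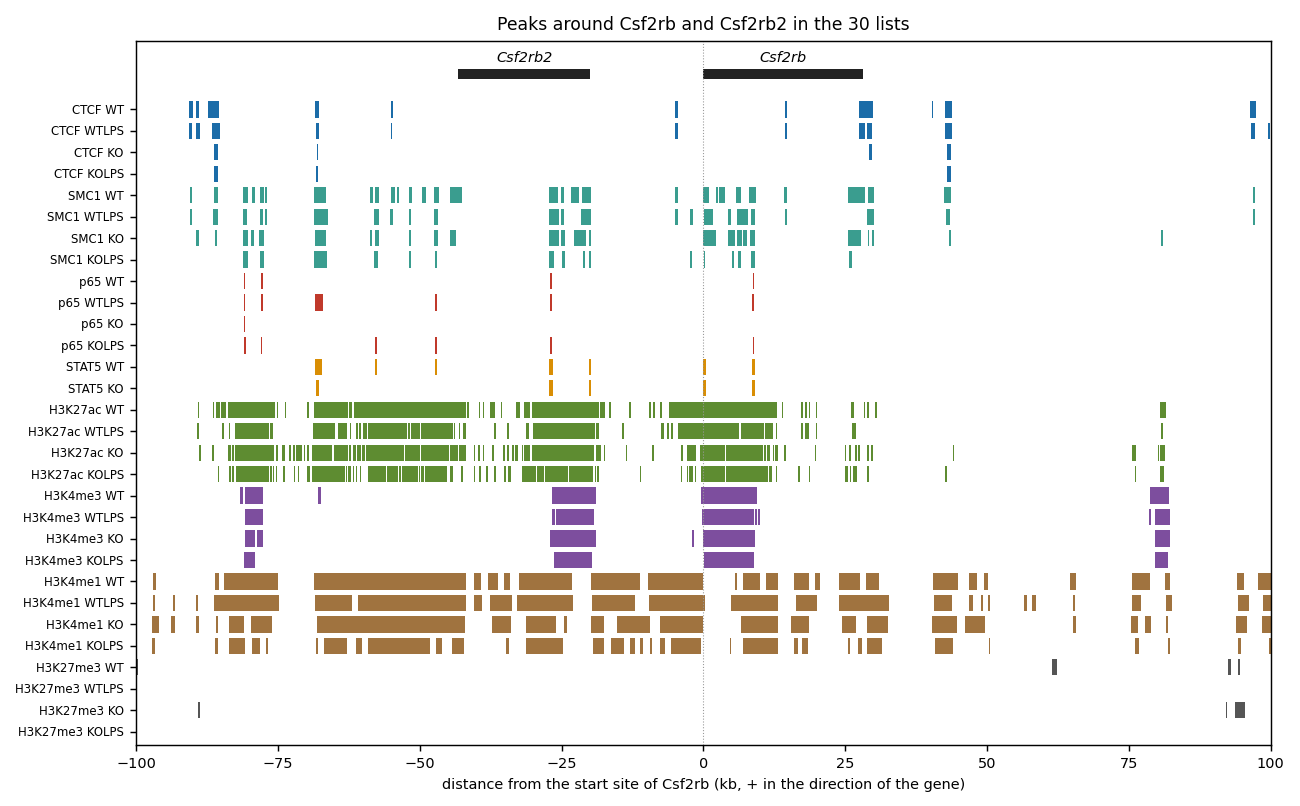
Peaks of the 30 lists (rows) by distance from the Csf2rb start site in kb, with the Csf2rb and Csf2rb2 bodies as black bars. STAT5 peaks stand at both starts and in both introns, p65 peaks stand in both introns in all lists but KO, and most CTCF bars of WT have no counterpart in KO.

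CTCF itself was found at 3 of 7 receptor promoters in WT (29.5% of genes) and 2 of 7 in WTLPS (27.2%), and at none in the CTCF-KO lists. The fold at Flt3 was 16.0 in WT and 7.94 in WTLPS, at Csf1r 4.22 and 4.85, and at Csf2ra 2.57 in WT only. All 3 WT promoter peaks were absent in KO, a loss shared by 55.9% of promoters with a WT peak. Both WTLPS peaks were absent in KOLPS, where 71.1% of promoters lost theirs. These peaks stood at the edges of the promoters, more than 1 kb from each start site. The Csf2ra peak lay within 2.5 kb of the retained-intron start and not of the start of the longest coding form.

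Around the genes CTCF peaks numbered 68, 62, 22 and 16. KO had 0.324 times the WT number (exact 95% interval 0.190 to 0.530) and KOLPS 0.258 times the WTLPS number (0.139 to 0.453). The ratios of the whole lists, 0.333 and 0.214, lay inside these intervals. Every receptor had fewer CTCF peaks in KO than in WT, as did 93.8% of genes with a peak in either list. Likewise 7 of 7 had fewer in KOLPS than in WTLPS, against 97.6% of genes. Flt3 went from 17 in WT to 5 in KO, Csf3r from 16 to 4, Csf2ra from 12 to 5, Csf2rb and Csf1r from 11 to 4, Csf2rb2 from 10 to 4 and Kit from 1 to 0. Kit was the only receptor with nearly no CTCF around it, and 89.8% of genes had as many peaks as Kit or more in WT.

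The peaks that were kept in KO were mostly strong ones in WT. In the split by strength, of the 30 WT receptor peaks at or above the median -log10 p of the WT list 19 were overlapped in KO, and of the 38 below it 1 was. For the whole list these shares were 44.1% and 2.91%. The tallest CTCF peak near a receptor in the WT lists lay 66.0 kb downstream of the Csf2rb2 start, with a fold of 56.1 in WT (top 0.0925% of the list), 49.6 in WTLPS and 16.0 in KO, where the tallest stood near Csf3r (16.96). Near Csf2ra a peak 26.9 kb from the start, within the top 0.823% of the WT list, was called in all 4 lists.

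SMC1 followed with smaller losses. Its peaks around the receptors numbered 97, 74, 57 and 36, which gave 0.588 (0.416 to 0.823) for KO to WT and 0.486 (0.317 to 0.734) for KOLPS to WTLPS. The whole lists gave 0.471, inside the interval, and 0.301, below it. Fewer SMC1 peaks in KO than in WT were found at 7 of 7 receptors and at 94.9% of genes, and fewer in KOLPS than in WTLPS at 6 of 7 (Kit had 2 in each) and at 97.6% of genes. The receptors differed in how much they kept. Of the WT SMC1 peaks near Csf2rb 20 of 30 were overlapped in KO, near Csf1r 10 of 16 and near Csf3r 8 of 16, whereas near Flt3 and Csf2ra 4 of 16 and 3 of 12 were, and near Kit 3 of 7. The share of the whole WT list was 34.5%. Around Csf2rb the KO list still held 25 SMC1 peaks, and 0.624% of genes had as many or more.

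At 4 of the 5 active promoters, those of Csf2rb, Csf2rb2, Csf2ra and Csf1r, SMC1 was called in all 4 lists, with folds between 3.99 and 10.3. Flt3 had one in both WT lists (6.56 and 6.504) and in neither CTCF-KO list. Kit had one in WT only (4.37). Of the 6 receptor promoters with SMC1 in WT 2 lost it in KO, against 44.9% of promoters, and of the 5 with SMC1 in WTLPS 1 lost it in KOLPS, against 60.2%. At the Flt3 promoter the lost CTCF and SMC1 peaks overlapped each other upstream of the start.

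**Figure D3:**
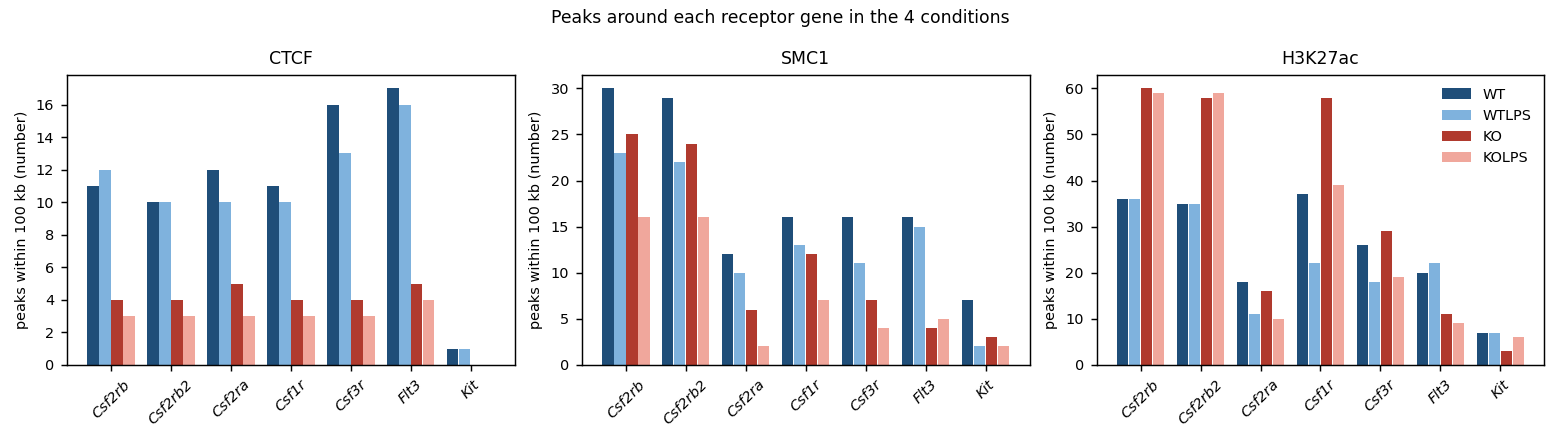
Number of CTCF, SMC1 and H3K27ac peaks within 100 kb of each receptor start site in the 4 conditions (1 list each, no error bars). CTCF bars drop in both CTCF-KO lists at every gene, and SMC1 bars stay highest at Csf2rb and Csf2rb2.

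The number of H3K27ac peaks around the receptors was 144, 116, 177 and 143. The ratio of KO to WT was 1.23 (0.981 to 1.54), where the whole lists gave 0.975, just below that interval. The ratio of WTLPS to WT was 0.806 (0.625 to 1.04), where the whole lists gave 0.923, inside it. Both intervals included 1. The first did not hold under every setting: the KO to WT interval lay above 1 with 50 kb windows (1.31, 1.01 to 1.70), 200 kb windows (1.23, 1.01 to 1.49), lists of equal size (1.28, 1.01 to 1.62) and -log10 p at or above the median (1.43, 1.05 to 1.95), and equal coverage gave 1.497. The covered length did not grow with the number: it was 149 kb in WT and 131 kb in KO, and the median KO peak of the whole list was narrower (271 bp against 369 bp). Csf1r lost covered length after LPS in both genotypes, from 29.4 to 13.4 kb in WT and from 31.5 to 15.3 kb in CTCF-KO cells. Csf2rb stayed between 59.6 and 77.8 kb in all 4 lists.

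More H3K27ac peaks in KO than in WT were counted at 4 of 7 receptors, Csf2rb, Csf2rb2, Csf1r and Csf3r (49.5% of genes), and fewer at Csf2ra, Flt3 and Kit, 3 of 7 (39.7% of genes). Around Flt3 the H3K27ac peaks numbered 20 in WT and 22 in WTLPS, and 11 in KO and 9 in KOLPS, covering 12.6, 9.96, 3.17 and 2.55 kb. Around Kit they numbered 7, 7, 3 and 6 and covered 3.47, 4.33, 0.533 and 1.28 kb. Both CTCF-KO lists lay below both WT lists at these genes in covered length. Whole H3K27ac lists covered 60.9, 59.6, 41.3 and 32.4 Mb, and the part of the lists in this difference was not tested. In an estimate added after seeing the data, thinned to the coverage of the KO list, the WT list was expected to keep 17.1 of its 20 peaks at Flt3 and 6.40 of 7 at Kit. Thinned to KOLPS, WTLPS was expected to keep 17.6 of 22 at Flt3, where KOLPS had 9. At Kit it was expected to keep 5.15 of 7, where KOLPS had 6, so the Kit difference in number was not seen after LPS. The estimate lowers the coverage only and leaves enrichment and peak width as they were. It therefore cannot say what part the lists had in these differences. Within Flt3 the WT peaks lay in the gene body from 26.96 to 62.2 kb after the start, the strongest at 36.6 to 38.8 kb with a fold of 14.7. A group of 4 peaks from 59.5 to 62.2 kb in WT, and of 4 from 59.7 to 62.9 kb in WTLPS, had no counterpart in KO or KOLPS. Of all peaks within 100 kb of Flt3, 14 of 20 in WT and 13 of 22 in WTLPS had none in either, against 45.7% and 47.8% of the whole lists. Within Kit, H3K27ac lay between 64.1 and 67.1 kb after the start in all 4 lists, deep in the gene body and near the WT-only STAT5 peak, while the promoter had none.

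**Figure D4:**
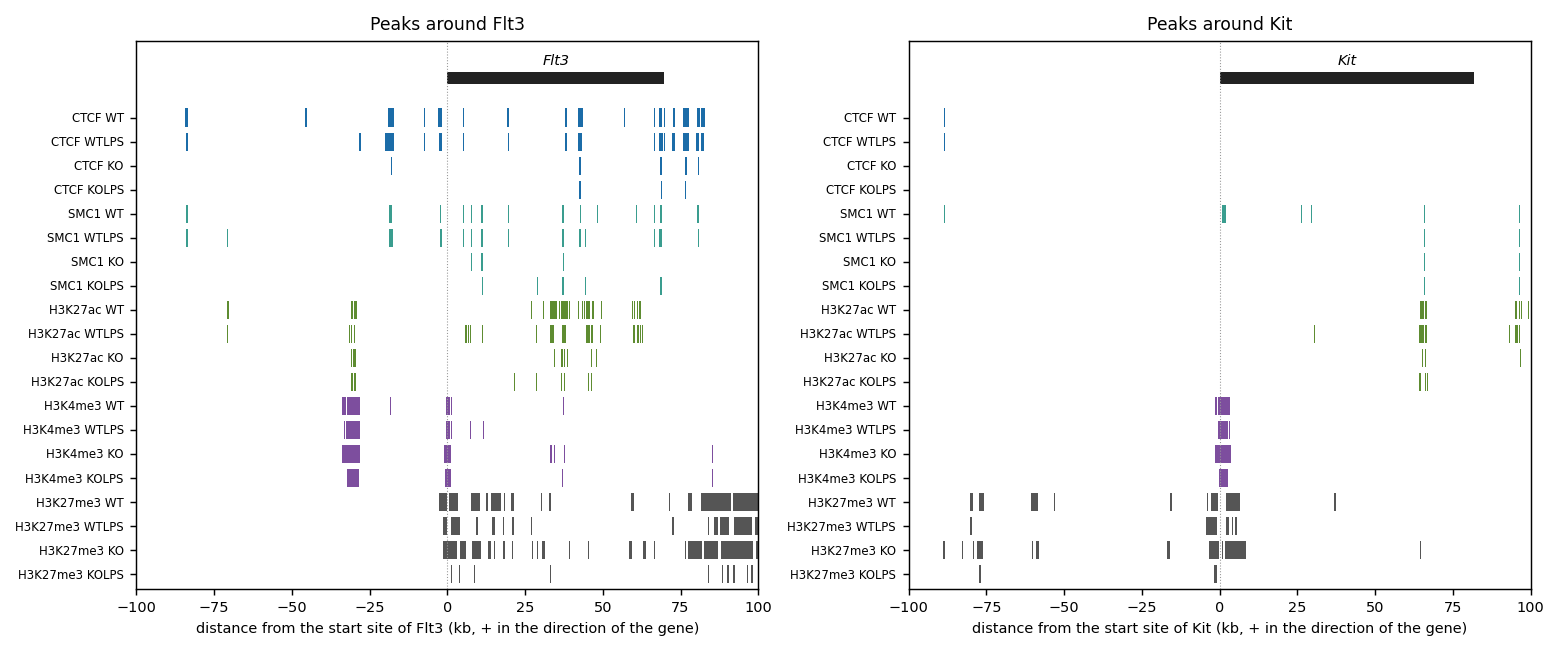
Peaks of CTCF, SMC1, H3K27ac, H3K4me3 and H3K27me3 around Flt3 (left) and Kit (right), by distance from the start site in kb, with the gene body as a black bar. H3K4me3 and H3K27me3 bars meet at both starts, H3K27ac bars lie inside the bodies and not at the starts, and the Flt3 body has fewer H3K27ac bars in KO and KOLPS.

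H3K4me3 peaks around the receptors numbered 37 in WT and 34 in KO (ratio 0.919, interval 0.560 to 1.505). H3K4me1 peaks numbered 98 and 113 (1.15, 0.872 to 1.53). The whole lists gave 1.05 for H3K4me3 and 0.988 for H3K4me1, inside both intervals. H3K27me3 peaks numbered 68 and 95 (1.40, 1.01 to 1.94), where the whole lists gave 0.986 and the interval included 1 with 50 kb windows or lists of equal size. More in KO than in WT were counted at 4 of 7 receptors and at 42.1% of genes, with covered lengths of 140 and 134 kb, so that the larger number in KO was not a longer cover. Most of the additional H3K27me3 peaks stood around Csf3r (7 in WT and 18 in KO, covering 5.02 and 14.4 kb) and Flt3 (14 and 21, covering 34.5 and 36.3 kb). Csf2rb had 4 H3K27me3 peaks within 100 kb in each untreated list and none after LPS. Fewer H3K27me3 peaks in WTLPS than in WT were found at 4 of 7 receptors and 79.1% of genes, and fewer in KOLPS than in KO at 7 of 7 and 96.3% of genes.

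**Figure D5:**
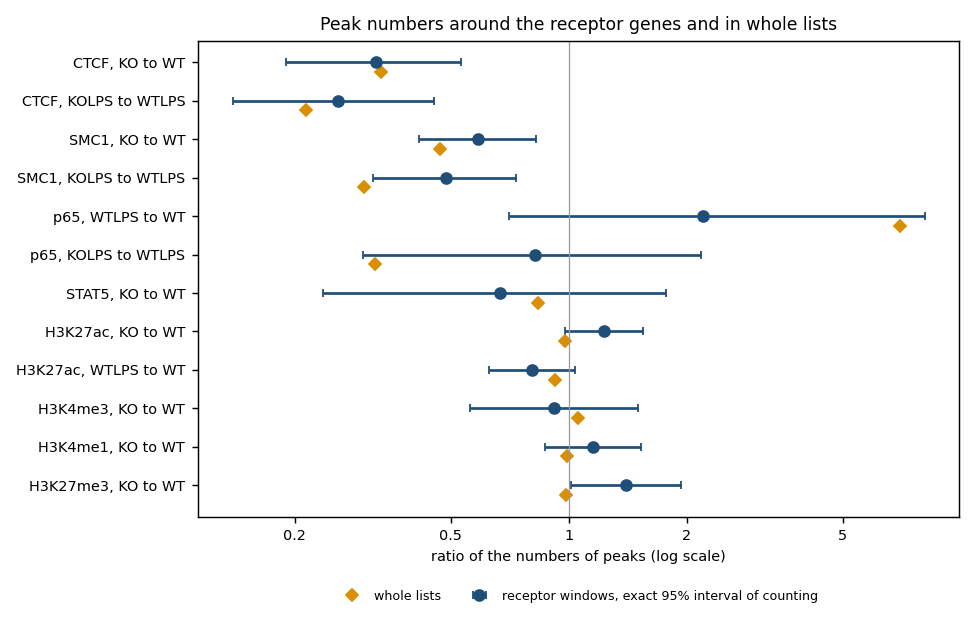
Ratio of the number of peaks around the 7 receptors between pairs of conditions (dots, with exact 95% intervals that cover counting error only) and of the whole lists (diamonds), on a log axis. The CTCF and SMC1 intervals lie below 1, the H3K27me3 interval starts at 1.01, and all others include 1.

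Across all 30 lists Csf2rb and Csf2rb2 had the same promoter pattern of presence and absence, Csf1r differed from them in 2 lists, and Flt3 and Kit agreed in 27. Outside the receptors 38 genes matched Csf2rb in all 30 lists, among them Cd274 (the ligand PD-L1) and B4galt1. Csf1r was matched by 19 genes, among them Batf3, a transcription factor of dendritic cells, and Ctsc, a lysosomal protease. Csf3r, with histone marks alone, was matched by 667 genes. Csf2ra and Kit had no full match, with at best 29 lists.

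The rest of the pathway was listed by role. For comparison, 56.7% of all protein-coding promoters had H3K4me3 in WT, 44.1% had H3K27ac and 27.1% had H3K27me3. Of 8 ligand genes Csf1, Flt3l and Kitl had H3K4me3 at their promoters in WT, and 6 had H3K27me3 (Csf1, Il34, Csf2, Kitl, Il3 and Il5). Kitl, the ligand of Kit, had H3K4me3 and H3K27me3 without H3K27ac in all 4 lists, as Kit did. All 12 kinases and signal transducers and all 7 inhibitors had H3K4me3 and H3K27ac in every condition. STAT5 was at the promoters of Jak2, Stat3, Stat5a and Ptpn11 in WT and at none of the 12 in KO, where 32.6% of all promoters with a WT peak lost theirs, whereas of the inhibitors Cish, Socs1, Socs3 and Cbl, which restrain cytokine signalling, had it in both. CTCF was lost in KO at 6 of the 16 promoters of these 33 genes that had it in WT, against 55.9% of all such promoters. Il3ra, the α chain of the IL-3 receptor, carried H3K4me3 and H3K27ac in all 4 lists, and Il5ra carried neither in any.

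The labelled cell type was compared with its markers. H3K4me3 and H3K27ac were at 7 of 8 promoters of dendritic and antigen-presenting cell genes in both untreated lists (Cd209a was the exception). In WT H3K4me3 was at 6 of 6 macrophage and monocyte genes, 2 of 6 neutrophil genes, 1 of 4 mast cell and basophil genes, 0 of 4 T cell genes, 1 of 3 B cell genes, 2 of 3 erythroid genes and 3 of 3 stem and progenitor cell genes. H3K27ac was at 0 of 3 stem and progenitor cell genes in WT and KOLPS, 2 of 3 in WTLPS and 1 of 3 in KO, and at 0 of 4 mast cell and basophil genes in WT. Fewer cells of a type and less of a mark per cell cannot be told apart in these lists, nor can 2 marks on the same chromosome and 2 marks on different cells, which touches Flt3 and Kit.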

How the data were processed

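Peaks of 8 antibodies had been called per antibody and condition. Per the labels and the submitters' processing notes, the authors tagmented chromatin with Nextera enzyme, sequenced paired ends, and used BWA 0.7.12, Picard 1.77, MACS2 2.1.2 and deepTools 3.1.3 on mm10. The deposited fold values are ratios of pileup to local background, and the deposited -log10 p and -log10 q values come from the peak caller's Poisson model. Of 34 samples, 4 were inputs without a list. The study describes 2 biological replicates per ChIP-seq condition and, for its experiments in general, replicates that were merged after a check, while its methods describe peak calling per sample and replicate. The labels do not say which of these the 1 list per condition is. The methods also name other tool versions than the processing notes. H3K27me3 and H3K4me1 peaks were called as broad regions without summits.

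A peak was assigned to a promoter or window by 1 shared bp. Background fragments, the coverage of a list, were recovered from fold and -log10 p. Ratios of counts carry exact 95% intervals conditional on their sum. No test between conditions was made. Either strand was read for motifs up to 50 bp from a summit. Genes were the 7 given, with their STAT5 and p65 peaks, promoter peaks and strongest CTCF peaks named, and up to 5 genes of like promoter pattern. The members and lists were chosen with earlier results of these data known. Python 3.11.15, numpy 2.4.6, pandas 2.3.3, scipy 1.17.1, pysam 0.24.0 and matplotlib 3.10.9 were used, and the scripts were tested on simulated data. Alternatives were other windows, start sites, thresholds, list sizes and coverages.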

Additional observations from a re-analysis of the deposited data

How the results depend on the processing

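Of 114 alternative values over 16 results, 100 stayed within the interval or 1.5 times the count reported, and 14 did not. Of these, 4 turned the direction of a ratio whose interval excluded 1, and the p65 ratio, whose interval included 1, also crossed it. Cutting lists to equal size removes, by construction, the difference in list length: the CTCF ratios became 1.29 (KO to WT) and 1.07 (KOLPS to WTLPS), the SMC1 ratios 1.46 and 1.38, the p65 ratio of WTLPS to WT 0.20, the count of promoter peaks in WT and not in KO 0 (5 as reported), and that in WTLPS and not in KOLPS 2 (6 as reported). Promoters of 1 kb gave 1 and 2 for these counts, and 0 for peaks in WTLPS and not in WT (1 as reported). That last count was 0 with the starts of all transcripts, 2 with the middle of the peak and 2 at -log10 p at or above the antibody median, where the SMC1 ratio of KOLPS to WTLPS was 0.28. With 1 kb the Csf2ra H3K4me1 peak of WTLPS was no longer reached, and with the starts of all transcripts H3K4me1 was called there in WT too. By the middle of the peak the 2 were H3K4me1 at Csf3r and H3K27ac at Csf2rb, whose WT peaks dropped out. At the median they were H3K4me1 at Csf2ra and at Kit. The cause of the change in the SMC1 ratio was not tested. The promoter states held for all 7 genes in all 4 lists with lists of equal size only. With the starts of all transcripts Kit gained H3K27ac at an internal start in all 4, and with 1 kb Flt3 lost its state in KOLPS. At -log10 p at or above the antibody median Flt3 lost it in all 4 lists, and Kit and Csf3r in KOLPS. By the middle of the peak Csf2rb2 lost it in all 4 lists, Csf2rb in all but KO, and Kit in WTLPS. No paired analysis was possible because each condition has 1 list and no replicate numbers. Depth is known only through the recovered coverage.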

Other observations

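Across the whole WT list, the 12 letters most often matched by the CTCF motif at a summit were CCAGAAGAGGGC. Around the receptors 10 of 68 WT CTCF peaks held them within 50 bp of the summit, and 2 of these 10 were overlapped by a KO peak. Of the 11 peaks with another match of the motif 9 were overlapped (81.8%), and of the 47 with none 9 were. In the whole list 9.92% of 8758 peaks with these letters were overlapped, 47.2% of 9684 with another match and 21.2% of 42095 with none. The median -log10 p of these classes was 15.9, 62.5 and 16.7. Peaks with another match were thus the strongest. Peaks with these letters and peaks with no match were close in median strength and differed in the share overlapped. The parts of strength and letters were not tested.

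Flt3l, the ligand of Flt3, had H3K27ac at its promoter in both WT lists and in neither CTCF-KO list. It had an H3K27me3 peak in KO only. Of 22 pathway promoters with H3K27ac in WT it was the 1 with none in KO, against 6.83% of all such promoters. H3K27me3 was present in KO and absent in WT at 3 of 11 pathway promoters (Flt3l, Il5ra and Pdgfrb), against 17.8% of all promoters with it in KO.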
